A study of Mus musculus with 8 samples.

Results

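The genes described here encode lysosomal hydrolases, their activator proteins and proteins of the lysosomal membrane, other than the cathepsins. The members were 41 listed gene symbols, taken by a rule that names genes and uses no value, though the list was drawn up with earlier results of these data known, and all 41 were among the 23469 genes of the expression table. Levels were compared between embryonic-derived (AeEM) and monocyte-derived (AeMM) macrophages of malignant mouse ascites, with 4 libraries in each group. All 8 libraries came from female Ms4a3Cre-RosaTdT mice on a C57BL/6 background (genotype Ms4a3TdT in the labels), which received ID8 cells, a mouse ovarian surface epithelial tumour line, in the peritoneum at 4 to 5 weeks of age. Bloody ascites was collected 65 days later, and the labels give no further treatment for either group. In these mice Cre driven by the Ms4a3 gene switches on tdTomato in the progeny of granulocyte-monocyte progenitors, so tdTomato-negative macrophages were sorted as AeEM and tdTomato-positive macrophages as AeMM. A macrophage that came from monocytes but escaped Cre would be sorted as AeEM. With antibodies, cells of both groups were sorted as positive for CD45, CD11b and F4/80 and negative for Ly6G, Siglec F and Ly6C. Libraries were prepared with Smart-seq2. The sources do not state that an AeEM and an AeMM library of the same number came from the same mouse. The p-values measure the spread between these libraries as deposited.

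Lysosomes are acidic compartments in which macrophages break down what they engulf. Most lysosomal hydrolases are made in the endoplasmic reticulum, tagged with mannose 6-phosphate and carried to the lysosome, where a proton pump keeps the pH low. Loss of a single hydrolase or activator leaves its substrate undegraded and causes a lysosomal storage disease. Transcription factor EB (Tfeb) and its relatives bind E-boxes in the promoters of many lysosomal genes and raise their transcription together. Peritoneal macrophages clear dying cells and debris from the cavity, and their lysosomes receive the lipid, glycan, protein and nucleic acid of that load.

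The values were log2(TPM + 1), where TPM is a share of transcripts that corrects for transcript length, so levels could be compared between genes. Differences are AeEM minus AeMM on that scale, so a value above 0 is higher in AeEM, and they understate the change of genes at a few TPM. The number of reads was not in the table, so the counting precision of each value is unknown. The TPM of a library summed to between 958862 and 974303, and 8498 to 8753 genes reached 1 TPM. The macrophage markers Adgre1, Itgam, Csf1r, Ptprc, Fcgr1 and Mertk were all measured above this floor. Their summed level was 336 to 381 TPM in AeEM and 382 to 443 TPM in AeMM, which did not overlap. All were lower on average in AeEM (median difference -0.20), and for Adgre1, Csf1r and Mertk every AeEM library was below every AeMM library. Of these markers 0 of 6 passed limma's test and 2 had an unadjusted p under 0.05. The libraries formed 3 sets, namely replicate 1, replicate 2, and replicates 3 and 4 together, within which each gene had almost the same mean (the median gap between set means was 0.010 on the log2 scale). In the sets of replicate 1 and replicate 2, which hold 1 library of each group, the AeEM and AeMM values of a gene therefore mirror each other. The unpaired fit takes no account of this, so its spread, like the SDs given, leaves out differences between the sets. Its p-values can be too small and its intervals too narrow. The SE of the member Gm2a was 0.053 in the unpaired fit and 0.085 with the sets as a term. A fit that has the 3 sets as a term is given beside the calls.

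Of the 41 members, 39 had a mean of at least 1 TPM and were tested among 8801 genes with limma's unpaired moderated test at a Benjamini-Hochberg adjusted p of 0.05. The GM2 activator Gm2a and the tartrate-resistant acid phosphatase Acp5 were higher in AeEM, which is 5.13% of the members tested against 1.25% of all genes tested. The iduronate sulfatase Ids was lower in AeEM, which is 2.56% of the members against 1.16% of all genes. The other 36 did not pass, with differences from -0.61 to 0.46. Since each library pools cells, fewer cells with a transcript and less of it per cell cannot be told apart in any of these values. With the 3 sets as a term, limma called 0 members and 0.159% of all genes, the smallest adjusted p of a member was 0.060 (Gm2a), and 4 of the 39 members had an unadjusted p under 0.05, against 9.64% of all genes. In the unpaired fit 10 members, or 25.6%, had an unadjusted p under 0.05, against 18.0% of all genes.

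Promoter sequences are shown for the members on which the comparison turned and for 3 that carry the E-box Tfeb and its relatives recognise (Lamp1 with the most copies, the channel gene Mcoln1, and Sgsh, whose groups did not overlap). Windows from 250 bases before to 50 bases after each RefSeq transcription start (build GRCm38.p6) were matched for 36 of the 41 members. On both strands they were searched for the E-box CACGTG, its extended form TCACGTGA, which contains the first motif, the variant CATGTG, and GAGGAA, the core bound by the myeloid factor PU.1. CACGTG stood in 9 of the 36 members (25%), namely Glb1, Gla, Arsa, Sgsh, Naglu, Gaa, Lgmn, Lamp1 and Mcoln1, and in 8.09% of all 27025 genes with a window, or 12.4% of the 6893 genes with a window that were tested here. TCACGTGA was found for Gla and Mcoln1 (5.56% of members, 1.12% of all genes and 2.54% of tested genes). The variant stood in 19.4% of members, 15.9% of all genes and 10.2% of tested genes, and GAGGAA in 38.9%, 31.3% and 30.8%. Lamp1 carried 4 copies of CACGTG, starting at -61, -45, -28 and -15 from the start of transcription, and in Mcoln1 and Sgsh the copies shown start at -45 and -29. The windows of Gm2a, Acp5 and Ids held no CACGTG, and the match shown for each is the PU.1 core for Gm2a (as TTCCTC, its reverse complement) and Ids (as GAGGAA) and the variant (read as CACATG) for Acp5. A match describes letters in a window, and binding was not measured. Capitals mark CACGTG in the first 3 sequences, the variant in Acp5 and the PU.1 core in Gm2a and Ids, each read 5′ to 3′ on the strand of the gene.
Lamp1 (chr8:13159081-13159160, plus strand, directly before the start): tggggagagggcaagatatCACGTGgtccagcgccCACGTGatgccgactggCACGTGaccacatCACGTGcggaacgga
Mcoln1 (chr8:3500462-3500491, plus strand, at the annotated 5′ end of the gene): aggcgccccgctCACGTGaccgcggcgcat
Sgsh (chr11:119355523-119355552, minus strand, at the annotated 5′ end of the gene): ggggcctgccgtgCACGTGaccgtggggag
Gm2a (chr11:55097905-55097984, plus strand, directly before the start): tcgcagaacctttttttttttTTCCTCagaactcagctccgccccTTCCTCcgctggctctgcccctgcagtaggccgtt
Acp5 (chr9:22130614-22130708, minus strand, before an internal RefSeq start): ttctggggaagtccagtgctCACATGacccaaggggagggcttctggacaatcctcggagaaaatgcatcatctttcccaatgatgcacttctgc
Ids (chrX:70365256-70365335, minus strand, at the distal end of the window): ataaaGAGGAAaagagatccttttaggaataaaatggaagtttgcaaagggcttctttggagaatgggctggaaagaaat

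Abundance differed between the members by more than it did between the groups. Cd68, a heavily glycosylated membrane protein of macrophage lysosomes, was the most abundant, with a mean of 3639 TPM and rank 29 among the 8801 genes tested. Grn, which encodes progranulin, followed with 1458 TPM and rank 57, and together these genes held 61.6% of all TPM of the members. Creg1, a lysosomal glycoprotein, was at 519 TPM and the membrane glycoprotein Lamp1 at 433 TPM. A mean of at least 100 TPM was reached by 11 members, 20 lay between 10 and 100 TPM, and 10 were below 10 TPM. The sulfatase Arsb (mean 0.78 TPM) and Tfeb itself (mean 0.78 TPM) fell below 1 TPM and were not tested.

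**Figure D1:**
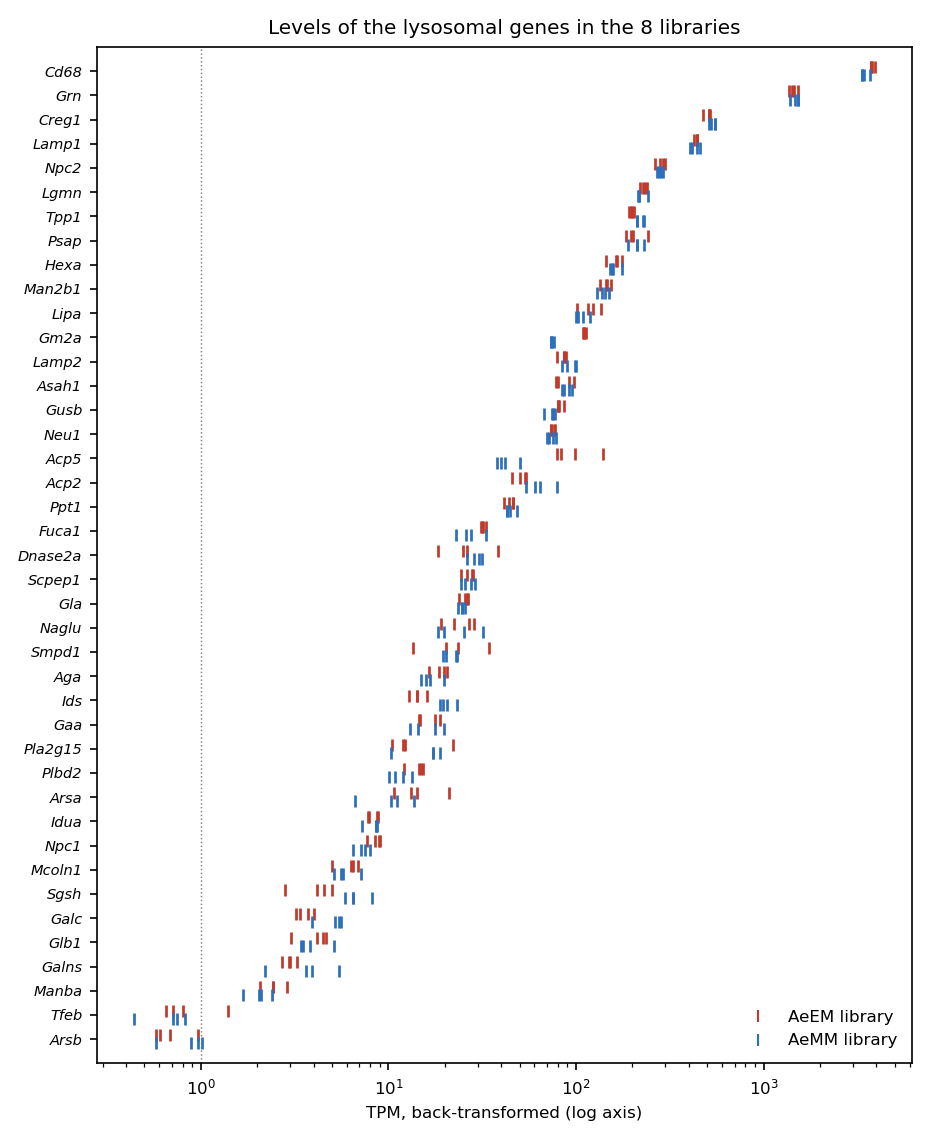
Level of each of the 41 lysosomal genes in the 8 libraries, as TPM back-transformed from log2(TPM + 1) on a log axis, with genes ordered by mean; each tick is 1 library, AeEM in red and AeMM in blue, and the dotted line marks 1 TPM. The levels run from under 1 TPM for Tfeb and Arsb to a mean of 3639 TPM for Cd68, and for most genes the red and blue ticks lie in the same range.

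Among the 9 genes of sphingolipid degradation, 1 was higher in AeEM, 0 were lower and 8 did not pass. Gm2a encodes the GM2 activator protein, which lifts the ganglioside GM2 from the membrane so that the enzyme holding the Hexa subunit can cut it. In GENCODE it lies on mm10 at chr11:55098115-55113029, which begins after the RefSeq start used for its promoter window. Its log2(TPM + 1) was 6.79, 6.81, 6.83 and 6.80 in AeEM replicates 1 to 4 and 6.28, 6.25, 6.23 and 6.22 in the AeMM replicates. Every AeEM library stood above every AeMM library, and the gap between groups was many times the spread within either (SD 0.020 in AeEM and 0.025 in AeMM, n = 4 each). These SDs are of values whose set means are almost equal, so they leave out differences between the sets. The difference was 0.56 (SE 0.05, 95% interval 0.44 to 0.69), or 1.48-fold, with an adjusted p of 0.0020 by limma, and the mean level was 111 TPM in AeEM and 74.7 TPM in AeMM. Within the 3 sets Gm2a differed by 0.51, 0.56 and 0.59, and the adjusted p was 0.060 with the sets as a term. The two-sided exact permutation test over the 70 ways to divide the libraries gave 0.0286, the smallest p it allows. Every gene without overlap between the groups gets this p, also the uncalled Gusb, Sgsh, Tpp1 and Cd68. It therefore adds nothing to the lack of overlap. With libraries exchanged only within the 3 sets there are 24 ways, and the exact permutation p of Gm2a, Acp5 and Ids was then 0.0833, which is the smallest they allow and cannot pass 0.05.

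The other 8 genes of this role did not pass. Hexa, the hexosaminidase subunit that acts with the GM2 activator, was at 7.35 ± 0.12 in AeEM and 7.33 ± 0.09 in AeMM (SD, n = 4), a difference of 0.02 with a 95% interval from -0.16 to 0.19. Psap, the precursor of the saposins and the most abundant gene of this role, was at 7.66, 7.54, 7.62 and 7.92 in AeEM and 7.73, 7.85, 7.73 and 7.57 in AeMM. The groups overlapped for Psap, and its difference of -0.03 (interval -0.24 to 0.18) changed sign under quantile scaling. For the α-galactosidase Gla, the β-galactosidase Glb1, the acid ceramidase Asah1 and the acid sphingomyelinase Smpd1, differences lay between -0.05 and 0.05, although for Smpd1 the interval ran from -0.51 to 0.55. Arsa, the sulfatase of sulfatides, differed by 0.46 (interval -0.08 to 1.0, adjusted p 0.36 by limma) and the galactosylceramidase Galc by -0.39 (interval -0.68 to -0.11, adjusted p 0.15), and for both the groups overlapped.

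Among the 7 genes of glycosaminoglycan degradation, 6 were tested, of which 0 were higher in AeEM, 1 was lower and 5 did not pass. Ids encodes the sulfatase that removes sulfate from iduronic acid in heparan and dermatan sulfate, and lies at chrX:70343069-70365084. It was at 3.79, 3.92, 4.09 and 3.93 in AeEM replicates 1 to 4 and at 4.59, 4.43, 4.36 and 4.31 in the AeMM replicates. Every AeEM library stood below every AeMM library, by 0.21 between the nearest pair. The difference was -0.49 (SE 0.10, interval -0.71 to -0.27), or 1.40-fold higher in AeMM, with an adjusted p of 0.041 by limma and 0.30 with the 3 sets as a term. Within the sets Ids differed by -0.81, -0.51 and -0.32, and the exact permutation p was 0.0286, as for every gene without overlap. The call rested on nearly every library. The adjusted p of Ids by limma became 0.138, 0.124 and 0.0788 without AeEM replicates 1, 2 and 4 and 0.138, 0.125, 0.0613 and 0.0536 without AeMM replicates 1 to 4, and only without AeEM replicate 3 did it stay under 0.05.

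Sgsh, the sulfamidase of heparan sulfate, was at 2.46, 2.37, 1.92 and 2.59 in AeEM and 2.78, 2.90, 2.90 and 3.20 in AeMM. The groups did not overlap, but the spread was wide at this level (4.13 ± 0.96 TPM in AeEM and 6.75 ± 1.0 TPM in AeMM, SD, n = 4), and the difference of -0.61 (SE 0.16) did not pass, with an adjusted p of 0.092 by limma and 0.40 with the 3 sets as a term. Within the sets Sgsh differed by -0.32, -0.53 and -0.79. Gusb, the β-glucuronidase, was at 6.35, 6.35, 6.37 and 6.45 in AeEM and at 6.24, 6.25, 6.30 and 6.10 in AeMM. Gusb was higher in each AeEM library than in any AeMM library, by a mean of 0.16 (SE 0.07), and limma's test did not pass (adjusted p 0.25, and 0.68 with the 3 sets). Within the sets Gusb differed by 0.11, 0.10 and 0.21. The iduronidase Idua, which acts on the same chains as Ids, differed by 0.002 (interval -0.21 to 0.22), Naglu by 0.03 and the galactosamine sulfatase Galns by -0.23, with adjusted p of 0.60 or more. Arsb, untested, was at 0.65 to 0.97 in AeEM and 0.66 to 1.01 in AeMM. Sgsh shares exon sequence with Card14, which was listed at 0.0012 TPM in AeEM and 0.0026 TPM in AeMM.

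Of the 3 members that act on nucleic acid or phosphate esters, 1 was higher in AeEM, 0 were lower and 2 did not pass. Acp5, at chr9:22126727-22135711, encodes tartrate-resistant acid phosphatase, a marker of osteoclasts and of some tissue macrophages. It was at 6.33, 6.63, 6.39 and 7.14 in AeEM replicates 1 to 4 and at 5.69, 5.42, 5.28 and 5.35 in the AeMM replicates. The lowest AeEM library was above the highest AeMM library, and AeEM replicate 4 was the highest of all. The difference was 1.19 (SE 0.18, interval 0.79 to 1.58), or 2.27-fold, with an adjusted p of 0.0117 by limma and 0.077 when the sets entered the fit. The exact permutation p was 0.0286, as for every gene without overlap. In TPM the means were 99.96 ± 27.7 and 42.5 ± 5.53 (SD, n = 4). Within the sets Acp5 differed by 0.64, 1.21 and 1.45, above 0 each time. An overlapping gene, 6530413G14Rik, was listed at 0.013 TPM in AeEM and 0.0035 TPM in AeMM. How reads of the shared stretch were assigned is not given, so these values do not settle whether the overlap affected Acp5. Acp2, the ubiquitous lysosomal acid phosphatase, was at 5.77, 5.68, 5.54 and 5.78 in AeEM and 5.94, 6.03, 6.33 and 5.78 in AeMM. Acp2 overlapped between groups by less than 0.01 (AeMM replicate 4 against AeEM replicate 4), and its difference of -0.33 (SE 0.12) had an adjusted p of 0.19 by limma. The acid nuclease Dnase2a differed by -0.15, with an interval from -0.58 to 0.28.

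**Figure D2:**
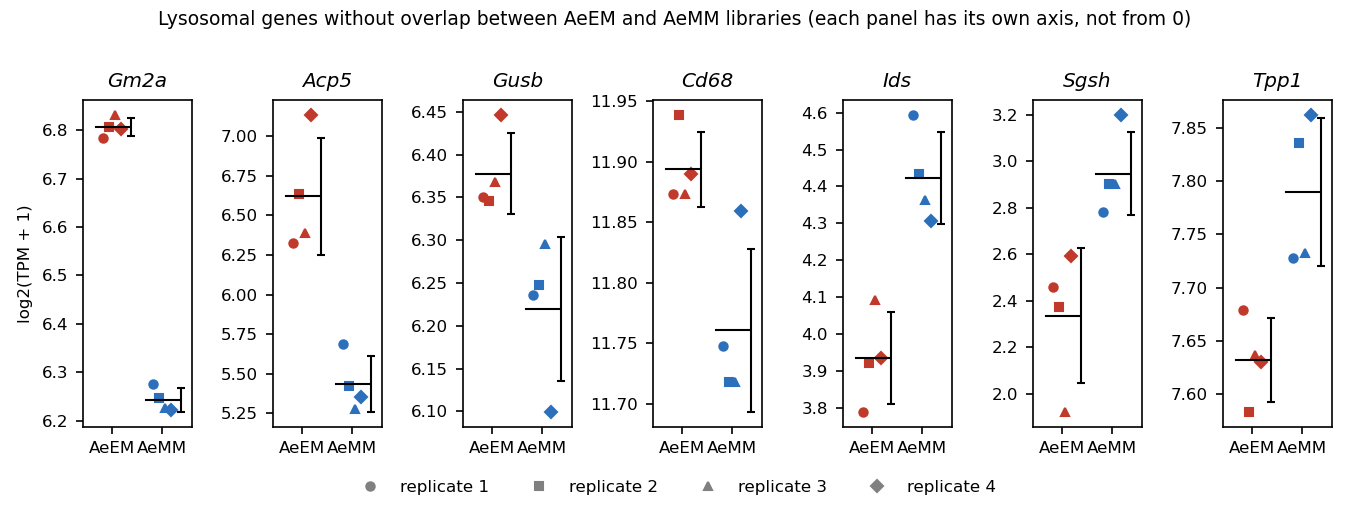
Level, as log2(TPM + 1), of the 7 tested lysosomal genes whose AeEM (red) and AeMM (blue) libraries do not overlap; the symbol shape gives the replicate, the long horizontal line is the group mean and the bar beside it spans 1 SD either side (n = 4), and each panel has its own axis that does not start at 0. Gm2a shows the smallest spread within groups and Acp5 the largest distance between them, and for Cd68, Gusb and Tpp1 the nearest libraries of the groups lie within 0.1 of each other.

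The genes without overlap were 4 with all AeEM libraries above (Gm2a, Acp5, Gusb and Cd68) and 3 with all below (Ids, Sgsh and Tpp1). These are 10.3% and 7.69% of the members tested, against 5.72% and 6.53% of all genes tested. The share below was close to that of all genes, and the share above rests on 4 genes, of which Gusb and Cd68 differed by less than 0.2.

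Glycoprotein and glycogen degradation had 6 members, and 0 were higher, 0 lower and 6 did not pass by limma (0 with an unadjusted p under 0.05). Man2b1, the lysosomal α-mannosidase and the most abundant of them, was at 7.28, 7.08, 7.20 and 7.18 in AeEM and 7.03, 7.24, 7.16 and 7.12 in AeMM. The groups were intermixed, and the difference was 0.05 with an interval from -0.11 to 0.20. The β-mannosidase Manba, the fucosidase Fuca1, the sialidase Neu1, the aspartylglucosaminidase Aga and the acid α-glucosidase Gaa, which breaks down glycogen, all had values above 0, from 0.02 for Neu1 to 0.23 for Fuca1, with adjusted p of 0.32 or more by limma. Neu1 was held within the narrowest interval of these genes, from -0.12 to 0.16.

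Sterol and phospholipid handling had 5 members, of which 0 passed by limma in either direction (1, Plbd2, with an unadjusted p under 0.05). Npc2, which binds cholesterol in the lumen and hands it to the membrane protein Npc1, was at 8.19, 8.13, 8.22 and 8.05 in AeEM and 8.08, 8.16, 8.13 and 8.20 in AeMM. The means differed by 0.01, with an interval from -0.13 to 0.14 and with a sign that turned when single libraries were left out. Npc1 was at 3.25 ± 0.09 in AeEM and 3.04 ± 0.11 in AeMM (SD, n = 4), a difference of 0.20 (adjusted p 0.32 by limma). The acid lipase Lipa, which frees cholesterol from its esters, differed by 0.14 (interval -0.08 to 0.36), the phospholipase B-like Plbd2 by 0.28 (interval 0.02 to 0.54, adjusted p 0.24) and the phospholipase Pla2g15 by -0.18 (interval -0.75 to 0.38).

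The lysosomal peptidases other than cathepsins, with the thioesterase Ppt1, gave 0 calls by limma among 4 members (1, Tpp1, with an unadjusted p under 0.05). Lgmn, the asparagine endopeptidase legumain, was at 7.84, 7.90, 7.78 and 7.88 in AeEM and 7.77, 7.75, 7.92 and 7.77 in AeMM, where replicate 3 stood above the other 3 libraries. Tpp1, the tripeptidyl peptidase lost in a form of Batten disease, was at 7.68, 7.58, 7.64 and 7.63 in AeEM and 7.73, 7.84, 7.73 and 7.86 in AeMM. All AeEM libraries of Tpp1 were below all AeMM libraries, by 0.05 between the nearest pair, and the difference of -0.16 (SE 0.06) did not pass (adjusted p 0.19 by limma, and 0.61 with the 3 sets). Within the sets Tpp1 differed by -0.05, -0.25 and -0.16. Lgmn differed by 0.05 (interval -0.09 to 0.19), the carboxypeptidase Scpep1 by 0.006 (interval -0.19 to 0.20) and Ppt1, which removes palmitate from proteins, by -0.01 (interval -0.18 to 0.16).

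Grn, Creg1, Lamp1 and Cd68, the most abundant members, gave 0 calls by limma, and 1 of them (Cd68) had an unadjusted p under 0.05. Grn was at 10.41, 10.50, 10.46 and 10.58 in AeEM and at 10.58, 10.52, 10.58 and 10.43 in AeMM, which overlapped, and its difference was -0.04 with an interval from -0.17 to 0.09. Creg1 was at 9.02, 9.0, 8.90 and 9.01 in AeEM and 8.99, 9.03, 9.12 and 9.10 in AeMM, a difference of -0.08 with an interval from -0.20 to 0.04. Lamp1, the main glycoprotein of the lysosomal membrane and the member with 4 E-boxes before its start, was at 8.78, 8.74, 8.79 and 8.78 in AeEM and 8.71, 8.78, 8.66 and 8.84 in AeMM. The AeEM values of Lamp1 lay inside the range of the AeMM values, and the difference was 0.02 with an interval from -0.10 to 0.15.

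Cd68 was at 11.87, 11.94, 11.87 and 11.89 in AeEM and 11.75, 11.72, 11.72 and 11.86 in AeMM. The groups of Cd68 did not overlap, with 0.01 between AeEM replicates 1 and 3 and AeMM replicate 4, and the difference of 0.13 (SE 0.05, adjusted p 0.18 by limma, and 0.58 with the 3 sets) became -0.02 under quantile scaling. Within the sets Cd68 differed by 0.13, 0.22 and 0.09. Lamp2, needed for the fusion of lysosomes with autophagosomes, differed by -0.13 (interval -0.30 to 0.05), and Mcoln1, the calcium channel of the lysosomal membrane, by 0.05 (interval -0.24 to 0.35). Tfeb, untested, was at 0.72 to 1.26 in AeEM and 0.53 to 0.86 in AeMM.

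**Figure D3:**
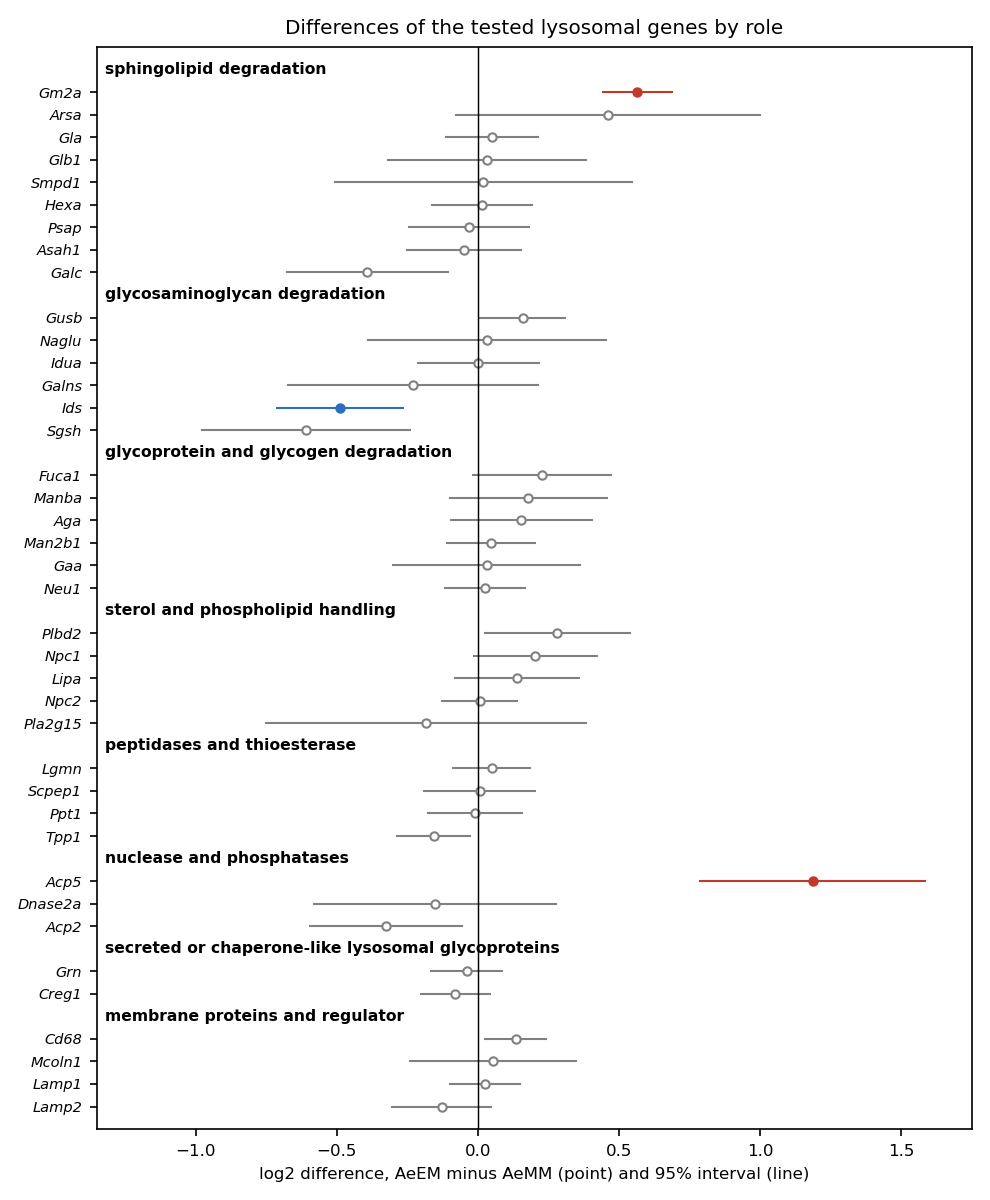
Difference of each of the 39 tested lysosomal genes, as mean log2(TPM + 1) in AeEM minus AeMM, with its 95% interval from limma's unpaired fit, grouped by role; filled red and blue points passed an adjusted p of 0.05 and open points did not. Gm2a (0.56), Acp5 (1.19) and Ids (-0.49) are the filled points, and most others lie within 0.25 of 0.

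Over all 39 members tested the median difference was 0.02, beside -0.01 over all 8801 genes. The median size of the difference, taken without sign, was 0.13 for the members and 0.16 for all genes, and 3 members (7.69%) differed by over 0.5, against 8.66% of all genes. Values above 0 were found for 25 members, or 64.1%, against 48.8% of all genes. Replicates of the members lay close together, with a median SD of 0.108 in AeEM and 0.115 in AeMM, against 0.195 and 0.191 over all genes. The members were more abundant than most genes tested, with Fuca1, the member in the middle by level, at rank 1518 of 8801. Genes of like level were not compared, so these spreads and the shares of intervals that follow cannot be read as particular to lysosomal genes. The 95% interval of 27 members, all of them not called, lay within 0.5 either side of 0 (69.2%, against 49.3% of all genes), and for 14 it lay within 0.25. Among the 36 not called, 19 differed by less than 0.1 and 31 by less than 0.25, while the interval of 9 reached beyond 0.5. For those 9 a difference of that size was not excluded. All these intervals are from the unpaired fit. With the 3 sets as a term the SE was larger, as for Npc2 (0.083 against 0.059) and Lamp1 (0.078 against 0.054). Intervals from that fit were not computed, so the counts of 27 and 14 hold for the unpaired fit only.

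**Figure D4:**
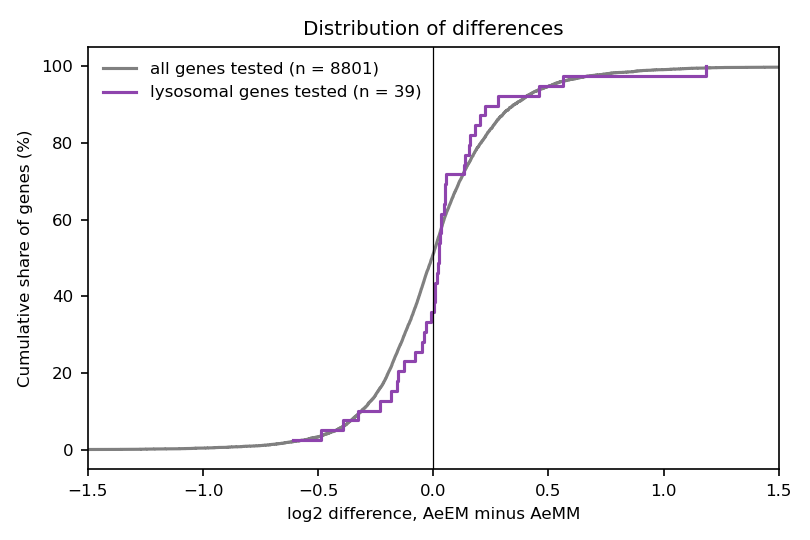
Cumulative share of genes, in percent, against the difference in log2(TPM + 1), AeEM minus AeMM, for the 39 tested lysosomal genes (purple) and all 8801 genes tested (grey); the axis ends at 1.5 either side of 0. The purple line is steeper around 0 than the grey line, and its last step is Acp5 at 1.19. The genes of the purple and grey lines were not matched for level.

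Summed over the 41 members, AeEM libraries held 8307 to 8637 TPM and AeMM libraries 8010 to 8242 TPM, so the groups did not overlap. Without Cd68 and Grn the sums were 3146 to 3314 and 3078 to 3211 TPM, which did overlap. These genes went in opposite directions, with means in AeEM and AeMM of 3805 and 3472 TPM for Cd68 and 1437 and 1478 TPM for Grn. Cd68 did not pass the test between groups, and its sign turned under quantile scaling.

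Other lysosomal genes were counted by the same test from lists by function. Of 121 genes 107 were tested, with 5 higher in AeEM (1.25% of all genes tested were), 1 lower (1.16% of all genes) and 101 not passing, and 0 passed with the 3 sets as a term. By unadjusted p under 0.05 limma gave 27 of the 107, and 16 when the sets entered the fit, against 18.0% and 9.64% of all genes. The other hydrolases gave 3 higher and 0 lower of 24 tested, among them the thiol reductase Ifi30 (0.30, adjusted p 0.0129 by limma) and the phospholipase B-like Plbd1 (0.53, adjusted p 0.025). Their summed level was 3368 to 3536 TPM in AeEM and 2820 to 2988 TPM in AeMM, much of it Ifi30 (2009 and 1629 TPM on average), and without Ifi30 it was 1383 to 1443 and 1258 to 1314 TPM.

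The cathepsin list gave 1 higher of 11 tested, the protective protein Ctsa (0.30, adjusted p 0.026 by limma), and 0 lower. The proton pump gave 1 higher and 1 lower of 17 tested, namely its subunits Atp6v0c (0.42, adjusted p 0.029) and Atp6v1f (-0.28, adjusted p 0.048). Mannose 6-phosphate tagging and sorting gave 0 of 15 by limma, other lysosomal membrane proteins 0 of 22, and the Tfeb relatives with nutrient sensing 0 of 18, with 1, 7 and 5 genes at an unadjusted p under 0.05. Median differences of these lists were 0.07 for the other hydrolases, 0.12 for cathepsins, -0.03 for the proton pump, 0.09 for tagging and sorting, -0.13 for membrane proteins and -0.10 for the Tfeb relatives and nutrient sensing.

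Markers of some other cells moved with the group labels and stand beside the calls for Gm2a, Acp5 and Ids. The dendritic cell list (6 genes) summed to 43.5 to 103 TPM in AeEM and 6.29 to 11.7 TPM in AeMM. Most of this was Cd209a, with a mean of 66.4 TPM in AeEM and 4.51 TPM in AeMM. Both genes tested, Cd209a (3.65, adjusted p 0.0029 by limma) and Itgax (1.05, adjusted p 0.0109), were higher in AeEM. The defining markers Flt3 and Zbtb46 were under 1 TPM in all 8 libraries and were not tested. Their means in AeEM and AeMM were 0.35 and 0.16 TPM for Flt3 and 0.60 and 0.25 TPM for Zbtb46. Mean TPM in AeEM and AeMM was 0.89 and 0.52 for Xcr1 and 0.61 and 0.78 for Clec9a. The neutrophil list summed to 20.7 to 23.7 TPM in AeEM and 33.2 to 46.4 TPM in AeMM. S100a8 was lower in AeEM (-1.03, adjusted p 0.0044 by limma) as 1 of 3 tested, with means of 11.3 TPM in AeEM and 24.3 TPM in AeMM. S100a9 was not tested, with means of only 0.045 TPM in AeEM and 0.38 TPM in AeMM, and Retnlg was under 1 TPM throughout. The other 2 neutrophil genes tested did not pass by limma and lay on either side of 0, Csf3r at -0.53 (adjusted p 0.11) and Mmp8 at 0.58 (adjusted p 0.25). Ly6c2, whose product the sort used to leave cells out of both groups, was lower in AeEM (-1.55, adjusted p 0.048 by limma). Ly6c1 was under 1 TPM throughout, and the list with Siglecf summed to 0.49 to 2.64 TPM in AeEM and 3.95 to 6.73 TPM in AeMM; Ly6g was not analysed here. The red cell list gave 0 of 5, with 7665 to 12745 TPM in AeEM and 4209 to 10475 TPM in AeMM, and the B cell list 0 of 4, with 34.3 to 84.6 and 65.2 to 76.3 TPM. T cell genes (0.21 to 2.26 and 2.09 to 6.54 TPM) had 0 tested, and the epithelial list (3.70 to 6.65 and 3.93 to 6.14 TPM) gave 0 of 2. At an unadjusted p under 0.05 by limma were 3 of 3 neutrophil genes, 3 red cell genes, 0 B cell genes and 0 epithelial genes. When the sets entered the fit, Cd209a stayed called (adjusted p 0.033 by limma), and Itgax (0.115), S100a8 (0.060) and Ly6c2 (0.251) did not. The part of these cells in the lysosomal results was not tested.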

How the data were processed

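RNA of 4 AeEM and 4 AeMM ascites macrophage samples was sequenced after Smart-seq2, which does not mark strand. The deposited table holds log2 values, log2(TPM + 1), which the authors made after alignment with STAR (2.7.2a, mm10) and counting with featureCounts per the submitters' processing notes. How TPM was computed, and the step that made gene means almost equal across 3 sets of libraries, are not given in the sources used here. All 8 columns matched the labels (0 columns of no sample). Raw counts were not used here, so no depth is known.

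Genes whose mean reached 1 TPM were tested with limma (3.58.1, R 4.3.3), without pairing, with a trend of variance on mean and Benjamini-Hochberg adjustment over all genes tested at 0.05, as listed among the study's tests; the same fit with the 3 sets as a term stands beside the calls. Single genes called were also given an exact permutation test (Python 3.11.15), and one within the 3 sets, added after the data were seen. Genes were named by rule: members called, members without overlap, the 1 or 2 most abundant others of each role, and up to 2 called genes per other list and direction; other members are given by their difference. The code was tested on simulated data, where recovery was required only for differences larger than those of Gm2a, Acp5 and Ids. That test set no limit on false calls, so it does not bear on whether these calls hold. Members and lists were chosen with earlier results of these data known. Alternatives were pseudocounts of 0.1 and 5, no filter, a 5 TPM filter, median-of-ratios and quantile scaling, a replicate block, replicates 3 and 4 only, and leaving out each library. Positions are from GENCODE M21 (mm10), where 41 members matched, and promoters from RefSeq (GRCm38.p6). A result for a single gene of the other lysosomal lists is not reported here, though the gene is in their counts.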

Additional observations from a re-analysis of the deposited data

Results flagged for a closer look

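Single libraries that stood apart from the other 3 of their group by Dixon's ratio were found in 5 of 82 member groups examined, and chance alone flags about 1 group in 20. On the log2(TPM + 1) scale these were Idua at 3.05 in AeMM replicate 4, against 3.26 to 3.27 in the others, and Pla2g15 at 3.50 in AeMM replicate 4, against 4.19 to 4.32. Lgmn was at 7.92 in AeMM replicate 3 (the next at 7.77), Creg1 at 8.90 in AeEM replicate 3 (the next at 9.0) and Lamp1 at 8.74 in AeEM replicate 2 (the next at 8.78). None of the 5 genes passed the test between groups.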

How the results depend on the processing

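The main counts were 2 members higher and 1 lower in AeEM, and Gm2a, Acp5 and Ids were called also at pseudocounts of 0.1 and 5, a 5 TPM filter and both scalings. Without the filter 1 was higher and 0 lower (adjusted p 0.0503 for Acp5 and 0.069 for Ids by limma), and with the 3 sets as a term, with a replicate block, or with replicates 3 and 4 only, 0 were higher and 0 lower. The replicate block gave adjusted p of 0.089 for Gm2a, 0.084 for Acp5 and 0.307 for Ids, and replicates 3 and 4 alone gave 0.593, 0.485 and 0.839. Leaving out each library left 2 higher each time and 0 to 1 lower. The groups mirror each other in replicates 1 and 2, so these fits are not separate checks. Same-numbered libraries deviated from their group means with correlations of -0.992, -0.999, -0.20 and -0.13. Because the set means are almost equal, values near -1 were fixed in advance for replicates 1 and 2. The correlations therefore cannot show whether libraries of the same number share a mouse. The main fit was unpaired because the study lists unpaired limma tests, and no source states a pairing.

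Among uncalled members, the sign turned for Cd68 (-0.021) and Psap (0.013) under quantile scaling, and for Psap (0.124), Npc2 (-0.027), Lgmn (-0.013) and Grn (0.015) in replicates 3 and 4 only. Over the fits that left out 1 library, Psap ranged from -0.11 to 0.017, Npc2 from -0.019 to 0.040 and Lamp1 from -0.0030 to 0.055. In all, 18 of 39 members turned sign in at least 1 alternative, none of them called, and their differences were at most 0.18. The causes were not tested. Depth is unknown.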
